A study of Mus musculus with 2 samples.

Results

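The regions described here are 3592 strong, narrow peaks of 5-hydroxymethylcytosine (5hmC) that were called in mouse embryonic fibroblasts at passage 0 and had no called counterpart at passage 5. They were chosen by measured values. A peak of the passage 0 list was taken when it lay on chromosomes 1 to 19, carried a deposited score of at least 290, was less than 2000 bp wide, and shared no base with any peak of the passage 5 list. These conditions left 3592 of the 60157 passage 0 peaks, which is 5.97% (95% exact binomial interval 5.78% to 6.16%), and of 66883 peaks in the series. They are called lost peaks below, which says only that no peak was called there at passage 5. The other 1171 peaks that met the same limits on chromosome, score and width overlapped a passage 5 peak by 1 base or more, and these equally strong retained peaks are the contrast.

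5hmC is made when TET enzymes oxidise 5-methylcytosine. It gathers at enhancers and along the bodies of active genes. The enzyme that copies DNA methylation after replication recognises 5hmC poorly, so dividing cells tend to dilute the mark, and cells brought into culture are known for low levels of it. That is background and not a result of these lists.

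Both libraries came from fibroblasts of C57BL/6 embryos at day 13.5 of development, grown in serum-containing medium, with no genotype change or added agent named in the labels. One group was harvested at passage 0 and the other at passage 5, with 1 library each, and the design text names the comparison of 5hmC between these passages as its purpose. Sonicated DNA was enriched for 5hmC by GLIB, in which the hydroxymethyl group is tagged through an added sugar and pulled down, so the assay reports enriched stretches of DNA, not single bases. The labels do not say whether embryos were pooled or whether both harvests came from 1 culture, and peak lists hold no marker by which the cell type could be checked.

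There were 60157 peaks at passage 0 and 6726 at passage 5. Depth is unknown, since the lists hold no read numbers. Lower depth or enrichment of the later library and a lower level of the mark cannot be told apart. Each passage has a single library, so differences have no replicate check and no test was made. Intervals in brackets are at the 95% level, exact binomial for shares and from binomial ranks for medians. They take each peak as independent and hold only counting error. Positions are in mm9, counted from 1. No gene names or sequences are given for the regions, because the gene and promoter tables at hand are of another build, GRCm38.p6.

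Most strong narrow peaks of passage 0 were lost. Of the 4763 such peaks, 3592 had no passage 5 peak, or 75.4% (74.2% to 76.6%), while over all 60086 autosomal passage 0 peaks the share was 92.4% (92.2% to 92.6%). Since the absence of a passage 5 peak was part of the choice, these shares describe the choice and support nothing further. Among strong peaks of 2000 bp or more, 938 of 1227 were lost, or 76.4% (74.0% to 78.8%). Among the weaker narrow peaks it was 94.2% (94.0% to 94.4%), so both strong classes lay below the weak one. The strong classes had like shares but unlike scores, since the broad peaks had a median score of 530. Of narrow peaks with scores of 436.5 or more, 60.7% were lost (57.5% to 63.8%). Their median scores were 492 for lost and 515 for retained peaks.

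The members spanned a limited range of scores with a thin upper tail. Their scores ran from 290 to 1015, with a median of 349 and quartiles of 315 and 403. The score of 290 lies at the 90% point of the autosomal passage 0 list. Widths ran from 546 to 1998 bp, with a median of 1469 bp, whereas the median autosomal peak was 850 bp wide. Nothing in the lists set the limits apart. The 5 members just above the score limit had scores of 290 to 290.11, and the 5 lost narrow peaks just below it had 289.93 to 289.98. The 5 widest members measured 1997 to 1998 bp, and the 5 narrowest lost strong peaks beyond the limit 2001 to 2002 bp.

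The 10 highest-scoring lost peaks lay on 8 chromosomes. Each had 10 to 45 other passage 0 peaks within 100 kb, where the median member had 16. The highest-scoring was chr12:76927788-76929732, with a score of 1015 and a width of 1945 bp. It had 10 other passage 0 peaks within 100 kb, none of them with a passage 5 peak, and its nearest passage 5 peak was 124 kb away. There a passage 0 peak with a score of 285 was retained. The second, chr5:119617116-119618988 (score 861), lay in the opposite kind of surroundings. It had 6 passage 5 peaks within 100 kb, the nearest at 9.87 kb, and that one lay on no passage 0 peak.

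The third, chr6:135201085-135202511 (score 858), and the sixth, chr5:134915575-134917327 (score 819), had no retained neighbour among the 18 and 17 passage 0 peaks within 100 kb. The passage 5 peak nearest to the sixth was 178 kb away, on a passage 0 peak with a score of 105. The member was chosen for a high score and for having no passage 5 peak, so the lower score of the retained peak largely follows from the choice.

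A pair of the leading members flanked a retained peak on chromosome 8. These were chr8:10927569-10929232 (score 852) and chr8:10993099-10994857 (score 808). Between them lay chr8:10964141-10965237, a passage 0 peak with a score of 357 and a width of 1097 bp, which carried a passage 5 peak of 616 bp. The distances from the lost peaks to that passage 5 peak were 35.5 kb and 27.8 kb. Both flanking peaks were taken from the top of the lost list, so their higher scores follow from the choice.

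The remaining leading members were chr15:58829072-58830554 (score 826), chr17:30713514-30714670 (811), chr16:35508299-35510004 (802) and chr2:168342931-168344431 (783). Passage 5 peaks came as near as 32.2, 31.7, 5.41 and 13.1 kb to them, and each of these lay on another passage 0 peak, with scores of 780, 1609, 648 and 574. The member on chromosome 17 had the highest score for its width of all members, 70.1 per 100 bp. For each of the 10 leading members the closest passage 0 peak, 174 to 3127 bp away, was lost as well, which is near the background, since the nearest neighbour was retained for 7.88% of all autosomal peaks. In 9 of the 10 cases that neighbour scored below 200. Summed over the 10, there were 265 passage 0 neighbours within 100 kb, of which 16 were retained, or 6.04% (3.49% to 9.62%). Peaks near both members on chromosome 8 count for each of them in this sum, which makes the interval too narrow. Pooled in the same way over all autosomal peaks, 7.77% of neighbours were retained, which lies inside that interval.

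Retained peaks differed from lost ones in shape. The median score was 385 for retained peaks (378 to 394) and 349 for lost ones (346 to 351). Despite their higher scores, retained peaks were narrower, with a median of 1377 bp (1343 to 1402) against 1469 bp (1454 to 1483). Among members, stronger peaks were wider, with medians of 1325 bp in the lowest and 1649 bp in the highest of 5 score classes, so the 2 differences run against each other. The score per 100 bp of width joins them, with medians of 29.6 (29.1 to 30.0) in retained and 25.1 (24.9 to 25.3) in lost peaks. The quartiles were 25.3 and 35.1 in retained and 21.5 and 29.4 in lost peaks, so the distributions overlap over most of their range.

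The difference in width was also present among peaks of like score. The 4763 strong narrow peaks were divided into 5 classes of equal size by score. In 5 of 5 classes the median width was greater for lost peaks. In the lowest class, with scores of 290 to 312, the median widths were 1325 bp for lost and 1170 bp for retained peaks, at median scores of 300 and 301. In the class with scores of 339 to 377 they were 1466 bp and 1300 bp, at median scores of 355 and 357. The highest class, which starts at 436, had the smallest gap, 1649 bp against 1560 bp, and there the scores themselves were not matched (medians 492 and 515).

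At like scores, the share of lost peaks was larger among wider peaks. Up to 1749 bp it was higher at each step of width in 5 of 5 score classes, and beyond that it was level or slightly lower in the lowest 3. In the lowest score class it was 69.1% among peaks below 1000 bp (59.6% to 77.6%) and 92.1% among those of 1500 to 1749 bp (87.2% to 95.6%). In the second class the same shares were 65.9% (54.6% to 76.0%) and 88.1% (83.2% to 92.0%). In the fourth, with scores of 377 to 436, they were 57.5% (40.9% to 73.0%) and 78.4% (72.9% to 83.1%), and the intervals just meet. The strongest class had the lowest shares at every width, from 25.0% below 1000 bp, where it held 16 peaks (7.27% to 52.4%), to 69.0% at 1750 bp and above (63.6% to 74.1%). Leaving out that thin cell, its share at 1000 to 1249 bp was 45.0% (35.6% to 54.8%), still below the share at 1750 bp and above.

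**Figure D1:**
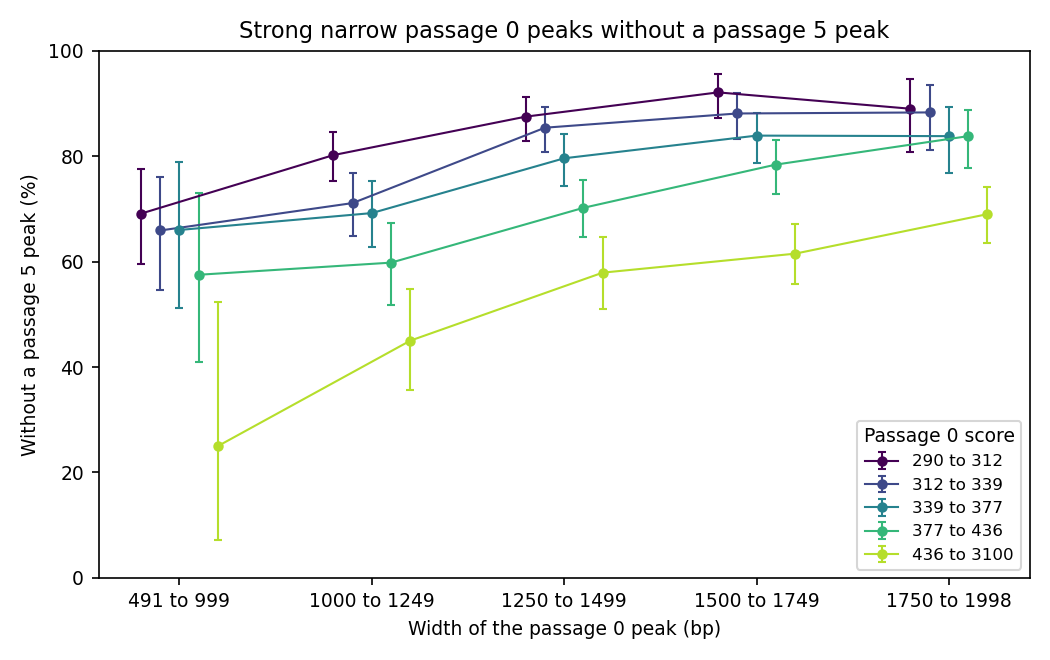
Share of strong narrow passage 0 peaks with no passage 5 peak (vertical axis, percent) by the width of the passage 0 peak (horizontal axis, 5 classes in bp), with 1 line for each of 5 score classes and bars for 95% exact binomial intervals. The shares are higher on the right than on the left, from 69.1% to 89.0% in the lowest score class and from 25.0% to 69.0% in the highest.

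Ordered by score per 100 bp, the share of lost peaks was lower at each step. It was 87.9% in the fifth of peaks with the lowest ratio, 14.6 to 21.2 per 100 bp (85.7% to 89.9%), then 85.3%, 77.8% and 69.1%, and 57.0% in the fifth with the highest ratio, from 32.4 per 100 bp up (53.8% to 60.1%). Even among the most compact strong peaks, more were lost than retained, 543 against 410. Score and width entered the choice of members as limits, so these are descriptions within the limits.

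Retained peaks show what a passage 5 call looked like at such sites. Of the 1171, 1149 carried 1 passage 5 peak and 22 carried 2 or more. The strongest partner had a median width of 595 bp (589 to 599), and passage 5 peaks together covered a median of 46.0% of the passage 0 peak (44.9% to 46.9%). The centres of the 2 peaks were a median of 144 bp apart (135 to 157). The passage 5 call thus lay near the middle of a wider passage 0 peak. The highest-scoring retained peaks were chr2:98502208-98503295 and chr2:98506249-98507635, both with a score of 3100, chr9:35112356-35113445 (2181), chr15:74915778-74917621 (2148) and chr9:2999856-3001613 (1310). None of the lost peaks reached the lowest of these 5 scores. Each chr2 peak had 3 passage 0 neighbours within 100 kb, all retained. The peak at chr9:2999856-3001613 had 13, all retained, and 19 passage 5 peaks within 100 kb. Pooled over retained peaks, 9.76% of such neighbours were retained. The peak at chr9:35112356-35113445 had 1 of 10 retained, and that on chr15 had no such neighbour. Whether sequence or mapping at these sites raised their scores was not tested.

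Lost peaks lay farther from passage 5 peaks than retained ones did, but nearer than the autosomal passage 0 list as a whole. The median distance, edge to edge, was 40.9 kb (38.2 to 43.9), with quartiles of 13.0 and 114 kb. For retained peaks, the nearest passage 5 peak other than their own was at a median of 26.3 kb (23.9 to 30.5), and for all autosomal passage 0 peaks at 58.9 kb (58.0 to 59.9). Lost peaks therefore lay between the other groups. The order was the same for the share with such a peak within 10 kb: 29.9% of retained (27.3% to 32.6%), 20.8% of lost (19.5% to 22.2%) and 16.0% of all peaks (15.7% to 16.3%).

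The greater distance was seen in each score class. Medians for lost and retained peaks were 40.5 and 31.4 kb in the lowest class and 33.9 and 23.7 kb in the highest, and lost peaks were farther away in 5 of 5 classes. The number of passage 5 peaks within 100 kb, not counting one on the peak itself, had a mean of 1.77 around lost and 2.12 around retained peaks (medians 1 and 2). No passage 5 peak lay within 100 kb of 28.2% of lost (26.8% to 29.7%) and 20.5% of retained peaks (18.2% to 22.9%). The share lost did not follow this number in steps. It was 80.9% with none, 74.8% with 1, 72.1% with 2, 77.1% with 3 and 70.2% with 4 or more.

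**Figure D2:**
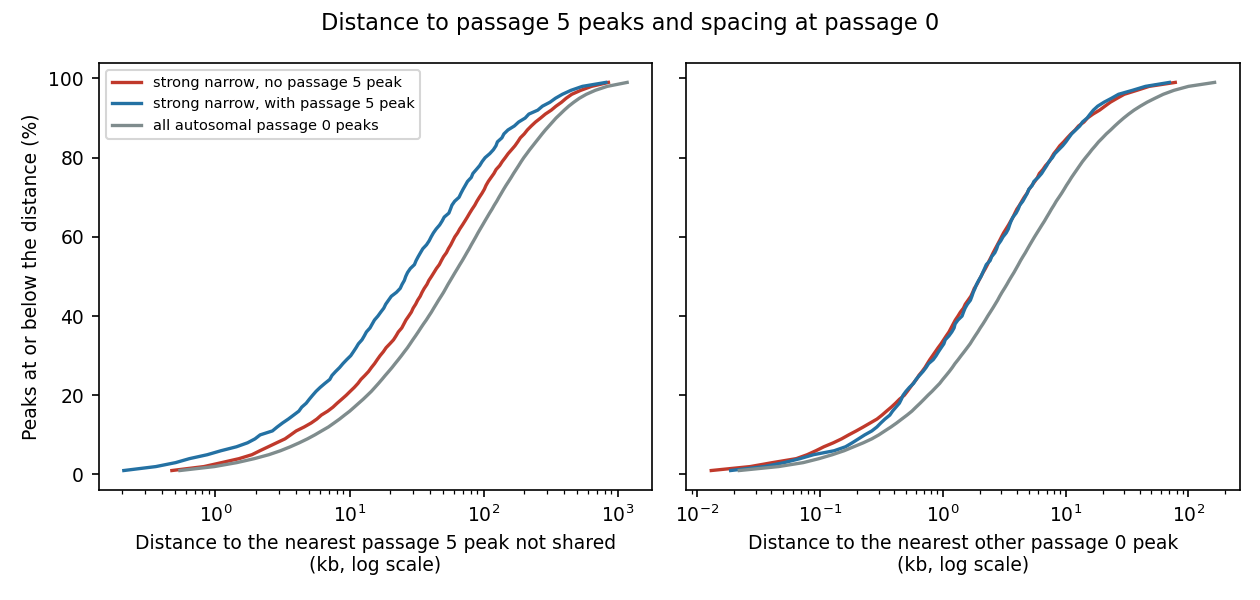
Cumulative share of peaks (vertical axis, percent, from the 1st to the 99th percentile) by the distance in kb on a log scale to the nearest passage 5 peak that shares no base with the peak (left) and to the nearest other passage 0 peak (right), for lost strong narrow peaks, retained strong narrow peaks and all autosomal passage 0 peaks. On the left lost peaks run between the other lines, with a median of 40.9 kb, and on the right the lines of lost and retained peaks lie on each other, with a median of 2.04 kb in each.

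Few members had a passage 5 peak just beyond their border, at shares somewhat above those of all lost peaks and below those of retained strong narrow peaks. Of the lost strong narrow peaks, 93 had one within 1 kb, or 2.59% (2.09% to 3.16%), and 454 within 5 kb, or 12.6% (11.6% to 13.8%). Over all lost autosomal peaks of any score and width the shares were 1.88% (1.76% to 1.99%) and 8.68% (8.45% to 8.92%). The closest were chr3:9716575-9718551 (score 361), 5 bases from a passage 5 peak, and chr7:140367818-140369242 (325), 22 bases from one. In both cases that passage 5 peak lay on no passage 0 peak. The next were chr4:32472976-32474543 (368) at 43 bases and chr7:37116966-37118552 (357) at 72 bases, and their passage 5 peaks lay on neighbouring passage 0 peaks with scores of 454 and 330. The fifth, chr9:117034948-117036312 (325), was 91 bases from a passage 5 peak on no passage 0 peak.

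Where a passage 5 peak was near, it usually marked another passage 0 peak. Of the 454 members with one within 5 kb, it lay on a different passage 0 peak for 374, or 82.4% (78.6% to 85.8%), and on none for 80. Over all 6700 autosomal passage 5 peaks, 70.0% lay on a passage 0 peak (68.9% to 71.1%). Passage 0 peaks are dense around members, and the part of that density in the higher share was not tested. In 252 of the 374 cases, or 67.4% (62.4% to 72.1%), the retained passage 0 peak had a lower score than the lost member beside it. In 195 of them its score was below 290 (52.1%, 46.9% to 57.3%). Of all 4581 retained autosomal peaks, 68.1% scored below 290 (66.8% to 69.5%). Since members were chosen at 290 or more, a lower score of the retained neighbour largely follows from the choice.

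At the other end, 21 members were more than 1 Mb from any passage 5 peak, or 0.585% (0.362% to 0.892%), compared with 1.35% of all autosomal passage 0 peaks. The farthest was chr7:7230335-7231413 (score 332), 6.28 Mb away, with only 1 other passage 0 peak within 100 kb. Next came chr12:46160575-46162475 (390) at 4.63 Mb, chr1:30647384-30648846 (330) at 3.10 Mb, chr14:115265046-115266269 (398) at 2.24 Mb and chr3:119201242-119202529 (373) at 1.64 Mb. These had 2 to 7 passage 0 neighbours within 100 kb. All 5 thus sat in stretches with few peaks at passage 0, where the median member had 16.

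Spacing within passage 0 was alike for lost and retained peaks. The nearest other passage 0 peak was at a median of 2.04 kb for lost (1.92 to 2.19) and 2.04 kb for retained peaks (1.83 to 2.26), with quartiles of 0.637 and 5.90 kb and of 0.645 and 5.97 kb. A neighbour within 5 kb was present for 71.8% of lost (70.3% to 73.3%) and 71.9% of retained peaks (69.2% to 74.5%). Over all autosomal passage 0 peaks the median was 3.62 kb and the share 57.5%. Strong narrow peaks of either kind therefore lay closer to other peaks than the list as a whole.

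Membership in runs was alike too. With gaps of up to 5 kb between neighbours, 7.04% of lost (6.23% to 7.93%) and 6.58% of retained peaks (5.22% to 8.15%) lay in runs of at least 10 passage 0 peaks, against 3.80% of all peaks. Standing alone were 28.2% of lost, 28.1% of retained and 42.5% of all peaks. The number of passage 0 peaks within 100 kb was slightly higher around lost peaks, with a mean of 17.8 against 16.7, and higher in 5 of 5 score classes. The share lost was 73.1% where that number was at most 5 (69.0% to 77.0%) and 79.8% where it was above 30 (76.4% to 82.9%). The median width of the strong narrow peaks was 1345 bp in the sparse and 1536 bp in the dense surroundings, and the part of width in this difference was not tested.

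Whether neighbours were lost was counted next. The nearest passage 0 peak was itself retained for 8.74% of lost (7.84% to 9.71%) and 12.3% of retained peaks (10.5% to 14.3%), beside 7.88% over all autosomal peaks. Within 100 kb, 7.87% of the passage 0 neighbours of lost peaks were retained (7.66% to 8.08%) and 9.76% of those of retained peaks (9.34% to 10.2%). The 7.87% is of 64063 neighbours summed over lost peaks, more than the 60086 autosomal peaks. A neighbour counts again for each peak it lies near, so both intervals are too narrow. Among 437 pairs of consecutive strong narrow peaks no more than 5 kb apart, 234 were lost together, 38 were retained together and 165 were split. Seen from a lost peak, the partner was lost in 73.9% (70.3% to 77.3%), and seen from a retained peak in 68.5% (62.2% to 74.3%), so these intervals overlap. Over all strong narrow peaks 75.4% were lost. A pair lost or retained together counts for both of its peaks, so these intervals are too narrow. No difference from 75.4% is drawn from them.

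Members rarely stood side by side. The nearest other member was at a median of 50.9 kb (46.7 to 56.3), and 3143 of the 3592 had none within 5 kb. The other 449, or 12.5% (11.4% to 13.6%), formed 213 runs, of which 21 held 3 or more. Of retained strong narrow peaks, 13.5% had a lost one within 5 kb (11.6% to 15.6%), so this spacing was alike for both kinds. The longest run by number of members lay on chromosome 17 between bases 45375616 and 45388485. It held 5 members and no other passage 0 peak in 12.9 kb, with no passage 5 peak nearer than 345 kb. In order along the chromosome their scores were 355, 314, 356, 724 and 473 and their widths 1416, 1571, 1563, 1965 and 1866 bp. Gaps of 563 to 1917 bp separated them. The strongest was chr17:45383257-45385221, the fourth of the 5.

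Another 20 runs held 3 members each, and the 2 named here mixed members with weaker peaks. Between bases 120729372 and 120742916 of chromosome 14, 3 members with scores of 450, 388 and 527 had between them 3 peaks that scored 119, 166 and 229. Between bases 44532734 and 44546037 of chromosome 16, 3 members with scores of 297, 358 and 339 stood among peaks of 205, 213 and 94.4. None of the 12 peaks in these 2 runs was called at passage 5, and the nearest passage 5 peaks were 23.5 and 480 kb from the runs. The runs span 13.5 and 13.3 kb. Their 6 members have no passage 5 peak by choice, and of all weaker narrow peaks 94.2% had none.

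Lost peaks were spread over all 19 autosomes. Their number ran from 105 on chromosome 19 to 283 on chromosome 2. Per Mb between the first and last peak of a chromosome, it ran from 1.08 on chromosome 1 to 1.89 on chromosome 11, and was 1.50 overall. Retained peaks ran from 0.369 per Mb on chromosome 7 to 0.655 on chromosome 19. The share of strong narrow peaks that were lost varied little, from 70.9% on chromosome 9 (64.2% to 77.0%) to 79.7% on chromosome 2 (75.2% to 83.8%). All 19 intervals include 75.4%, the share over all autosomes.

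**Figure D3:**
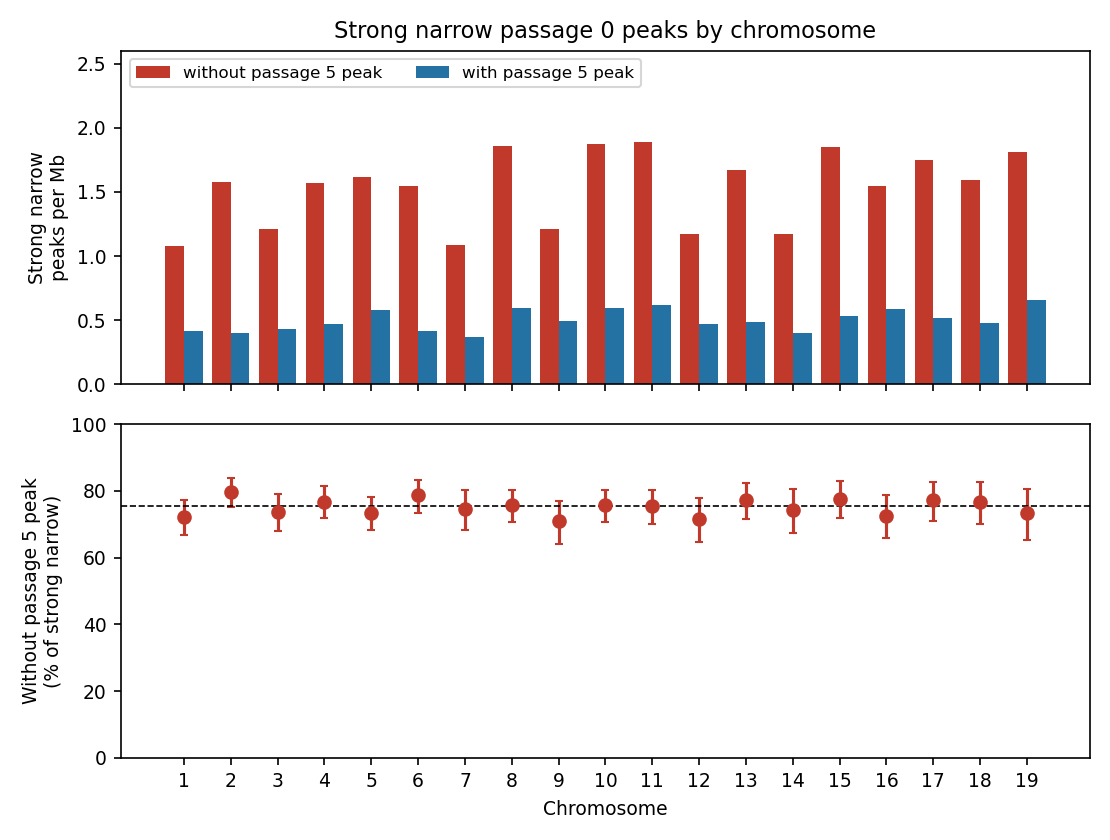
Strong narrow passage 0 peaks by chromosome (horizontal axis): the upper panel gives lost and retained peaks per Mb as bars, and the lower panel the share lost in percent, with 95% exact binomial intervals and a dashed line at 75.4%. Lost peaks outnumber retained ones on each chromosome, and every interval in the lower panel crosses the line.

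Within chromosomes, members were unevenly placed but not gathered in a few places. They occurred in 1148 of the 2102 autosomal windows of 1 Mb that held a passage 0 peak, and 248 windows sufficed for 50% of them. Only 36 windows held 10 or more, with 427 members in all. In 92 windows there were members, 159 in number, but no passage 5 peak. Apart from the 2102 windows, such counts were not made for all passage 0 peaks or for retained ones, so no contrast is drawn. The last 3 Mb before the final peak of each chromosome held 2.92% of lost (2.40% to 3.53%), 3.42% of retained (2.45% to 4.62%) and 2.88% of all autosomal passage 0 peaks.

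The window with the most members, 169 to 170 Mb of chromosome 2, had no retained strong narrow peak. All 17 of its strong narrow peaks were lost, with scores of 302 to 509, and a count of 0 allows a retained share of up to 17.6%, taking 3 counts as its limit, for counting error only. Of its 131 passage 0 peaks of any kind, 2 were retained, or 1.53%, beside 7.62% over all autosomal peaks (7.41% to 7.84%), and 17 of the 131 are lost by the choice of window. Of its 6 strong broad peaks 5 were lost, beside 76.4% over all such peaks. Its members lay 2.01 to 521 kb from a passage 5 peak, with a median of 56.8 kb. Since windows were ranked by their number of lost peaks, few retained ones are favoured by the choice.

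The other leading windows held both kinds. The window at 120 to 121 Mb of chromosome 10 had 16 lost and 3 retained strong narrow peaks, and its first 400 kb held 10 of the lost peaks, the 3 retained ones and all 9 passage 5 peaks. At 59 to 60 Mb of chromosome 2 there were 15 and 2, and at 49 to 50 Mb of chromosome 8 there were 15 and 1. At 122 to 123 Mb of chromosome 8 there were 15 and 6, the most retained of the 5 windows, where members and retained peaks were interspersed, with a median distance of 18.8 kb from a member to a passage 5 peak. Of the strong broad peaks in these 4 windows, 3 of 4, 4 of 4, 8 of 8 and 7 of 8 were lost, counts too small to set against the 76.4% over all such peaks.

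**Figure D4:**
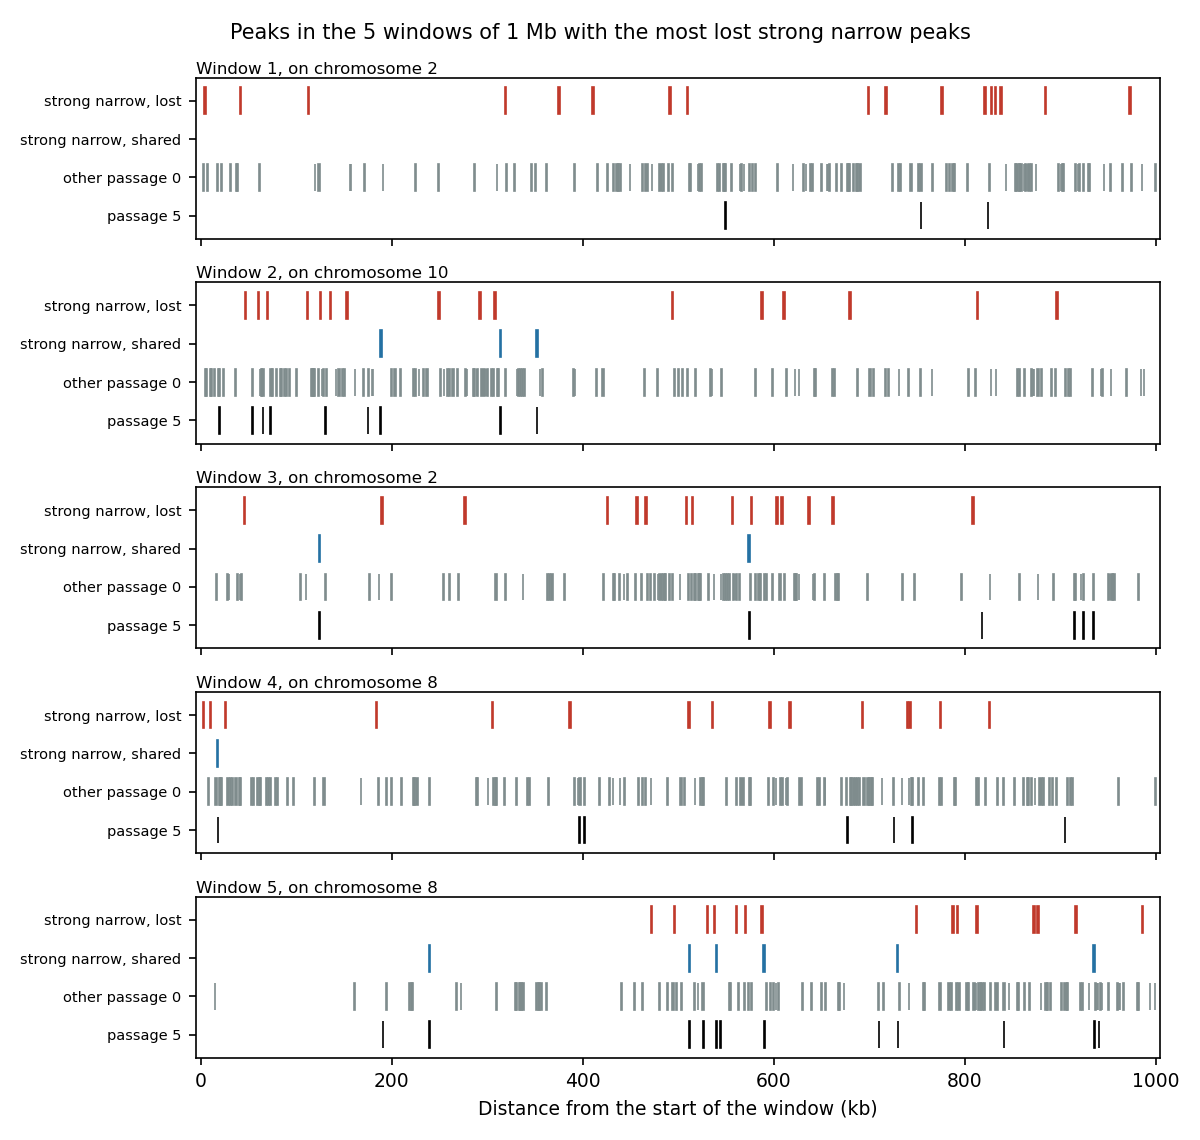
Peaks in the 5 windows of 1 Mb with the most lost strong narrow peaks, by distance from the start of the window in kb (horizontal axis), with a row each for lost strong narrow peaks, strong narrow peaks shared with passage 5, other passage 0 peaks and passage 5 peaks. Window 1 holds 17 lost and 0 shared strong narrow peaks, and window 5 holds 15 and 6.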

How the data were processed

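5hmC-enriched DNA of 1 library at passage 0 and 1 at passage 5 was analysed as peak lists. Per the submitters' processing notes, CASAVA 1.8, Bowtie 0.12.7 and MACS 1.4.1 were used with build mm9. Tool roles, duplicate handling, any input control and the calling cutoff: not given in the sources used here. Each peak's score is the authors' deposited value, and its scale is not named in the lists. It was used only within a list. Overlap (at least 1 base), edge-to-edge distance, counts within 100 kb and classes of score and width were computed in Python 3.11.15 (scipy 1.17.1, pandas 2.3.3, numpy 2.4.6). Plots used matplotlib 3.10.9. bedtools 2.31.1 gave the same 3592 members, and the scripts were tested on 3 simulated pairs of lists.

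Members, lists and classes were chosen with earlier results of these data known. Named regions are the 10 highest-scoring members, the 5 nearest to and farthest from a passage 5 peak and the 5 highest-scoring retained peaks. The 5 windows with most members, 3 of the longest runs by number of members and the peaks at the limits were also named. The 5 members of the longest run and the passage 0 peaks beside named members were added after their values were seen. Alternatives changed the limits on score and width, the rule for a shared peak, merging, and distances. The 3 planned results on CpG content, genes and gene features could not be run, since no mm9 annotation or genome was used here.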

Additional observations from a re-analysis of the deposited data

How the results depend on the processing

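Across 5 results, 42 values were recomputed. The 95% counting interval of the value in the text held 25 of them, and 17 fell outside. For the difference in median width, opposite ends of both median intervals were subtracted, which gives a wider interval than 95%. Only the difference in median width has a sign, and it kept that sign in all 8 of its recomputed values. The share of strong narrow peaks that were lost was 78.8% with a score of at least 250, 64.2% with a score of at least 400, 72.3% for widths below 1500 bp and 63.8% for widths below 1000 bp. The median distance from lost peaks to a passage 5 peak was 34.1 kb at the higher score limit, 50.3 kb for widths below 1000 bp and 47.7 kb with peaks within 1 kb merged. The share with another passage 0 peak within 5 kb was 69.9% and 75.6% at the lower and higher score limits, 69.3% and 62.6% at the width limits of 1500 and 1000 bp, 57.5% after merging, which removes close neighbours by construction, and 84.5% within 10 kb. The median number of passage 5 peaks near lost peaks was 2 at the higher score limit and 6 within 500 kb. Lost peaks were wider than retained ones by 48.5 bp in the median below 1500 bp and by 32.5 bp below 1000 bp, against 92 bp as reported. A lower width limit narrows the range in which they can differ. Below 1000 bp 298 strong peaks remained and the interval formed in that way, -14 to 62 bp, includes 0. The cause of the other shifts was not tested. Leaving out scores of at least 1000, an alternative chosen after the data were seen, changed 1 member and 6 retained peaks. Unknown depth limits every statement on lost peaks; no replicate could be left out.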
